A study of Myzus persicae with 8 samples.

Results

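Described here are 9 contigs annotated as enzymes of glycolysis, gluconeogenesis and the Krebs cycle, of the 10489 contigs with a probe on the *Myzus persicae* microarray. They are not all the contigs of these pathways on the array. Hexokinase was represented by contig1069 (annotated as hex-a) and contig3393, 6-phosphofructo-2-kinase by contig117, aldolase by contig1692 and pyruvate kinase by contig7810. Phosphoenolpyruvate carboxykinase (PEPCK) was represented by contig15015 and contig9824, pyruvate dehydrogenase by contig1856 and aconitase by contig5578. The contigs carried 13 probes, 2 each for contig1069, contig3393, contig1692 and contig1856 and 1 for each of the others. The 9 contigs were chosen from the contigs that the study had selected on the response of its S genotype to pirimicarb, so their S values are a description and were not tested. The values of the other genotypes, MR and SR, did not enter that selection.

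The study sprayed aphids of 3 genotypes with pirimicarb, a carbamate that inhibits acetylcholinesterase, and compared their transcripts with those of control aphids. The MR (multiple resistant) genotype is heterozygous for kdr, a sodium channel mutation, and for MACE, the modified acetylcholinesterase. The SR (simple resistant) genotype is heterozygous for kdr alone, and the S (sensitive) genotype carries neither. Each genotype was 1 clone, so genotype and clone cannot be told apart. All aphids were wingless adults of the same age on the labels, and received 1 ml of spray with pirimicarb at 20 ppm or without it. The sample titles call the control water, whereas its treatment label is acetone plus water, and it is called water here. The aphids alive after 24 hours were frozen, so pirimicarb-treated samples hold survivors only. Each extract was made from about 40 whole aphids, and in such samples fewer cells of a type and less RNA per cell cannot be told apart. Each array carried pirimicarb-treated and water-treated RNA of 1 genotype in 2 dyes. MR and SR had 2 replicates each (A and B) and S had 3 (A, B and C). Pirimicarb-treated RNA carried Cy5 in replicates A and C and Cy3 in replicate B. MR replicate A was hybridized on 2 arrays that were averaged, giving 7 replicates on 8 arrays.

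Glycolysis splits glucose to pyruvate and yields ATP. It begins with hexokinase, which phosphorylates glucose, and ends with pyruvate kinase. Pyruvate dehydrogenase turns pyruvate into acetyl-CoA, which enters the Krebs cycle, where aconitase converts citrate to isocitrate. PEPCK runs the other way, from oxaloacetate to phosphoenolpyruvate, a step of gluconeogenesis. Aphids feed on phloem sap, which is rich in sucrose.

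Arrays differed widely before any gene was considered. Between 87.1% and 93.4% of probes were well above background in both channels of an array, and 0 spots were saturated. Over the 14628 probes, the pirimicarb over water log2 ratios of MR A (first array) and MR B were correlated at -0.55, those of SR A and SR B at 0.08, and those of S replicates at 0.29 to 0.48, while the 2 arrays of MR A agreed at 0.98. Among arrays of the same dye orientation, S A was correlated at -0.47 with MR A, 0.39 with SR A and 0.30 with S C. Among those of the other orientation, S A was correlated at 0.35 with MR B, 0.24 with SR B and 0.29 with S B. The dyes are given in the labels, and the direction of each array was taken from them. The share of contigs with a log2 ratio past 1 in size was 13.1% in MR A, 6.13% in MR B, 12.1% in SR A, 0.725% in SR B, 12.8% in S A, 1.64% in S B and 3.79% in S C. For S A, the genotype label reads SR but the title and the description read S, and S values are therefore also given without it.

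In S, the 9 contigs had mean log2 ratios of 0.88 to 1.85, with a median of 1.23. These values chose the contigs. The study's thresholds were a log2 ratio past 1 in size and a P under 0.05. They were applied here per probe with the unadjusted P, and a contig counted when at least 1 of its probes passed, which 198 contigs did upwards in S (1.89% of 10489). Of the 13 probes, 12 passed. Just inside were probe b of contig1856 at 1.00 and probe a of contig3393 at 1.01, and outside was probe a of contig1692 at 0.62. Replicate A carried much of the S mean. The median of the 9 contigs was 2.12 in S A, against 0.75 in S B and 0.91 in S C. In the water channel of S A, contig15015, contig5578 and probe b of contig1069 and contig1856 were not well above background, so those ratios are uncertain. Without S A, the 9 means ran from 0.54 to 1.35 with a median of 0.81, and 3 contigs (contig1069, contig1856 and contig5578) stayed above 1, compared with 8 when all replicates were used. All 9 contigs were above 0 in each S replicate, as were 21.7% of all contigs. Neither the label of S A nor its weight in the mean was tested.

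**Figure D1:**
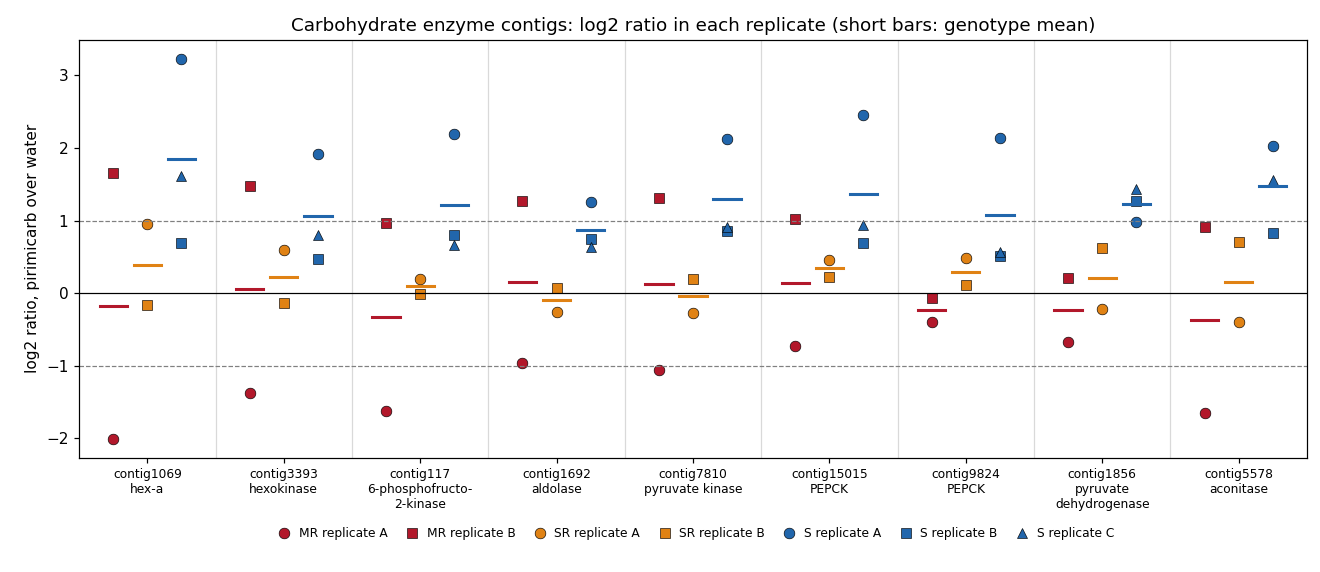
Log2 ratio of pirimicarb-treated over water-treated aphids for the 9 enzyme contigs, with 1 point per replicate, MR in red, SR in orange and S in blue, and a short bar at each genotype mean. Solid and dashed lines mark 0 and a log2 ratio of 1 in size. The MR replicates lie on opposite sides of 0 in 8 contigs, the SR points stay within 1 of 0, and S A (blue circle) is the highest S replicate in all contigs but contig1856.

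Hexokinase catalyses the entry of glucose into glycolysis. Contig1069 had log2 ratios of -2.002 and 1.66 in MR A and MR B, 0.95 and -0.16 in SR A and SR B, and 3.22, 0.70 and 1.62 in S A, S B and S C. MR A was the lowest of the 7 and S A the highest, and its S A value was the highest of any of the 9 contigs in any replicate. That value includes probe b, dim in the water channel of S A, and probe a alone gave 3.17. Contig3393 had -1.37 and 1.48 in MR, 0.59 and -0.13 in SR, and 1.92, 0.47 and 0.81 in S. The means were -0.17 ± 2.59 and 0.06 ± 2.02 in MR (SD, n = 2), 0.39 ± 0.78 and 0.23 ± 0.51 in SR (SD, n = 2), and 1.85 ± 1.28 and 1.06 ± 0.76 in S (SD, n = 3), for contig1069 and contig3393 in turn. The S mean of contig1069 was 3.60-fold, the highest of the 9. Both contigs have the same best protein match, hexokinase A of the pea aphid *Acyrthosiphon pisum*, so they may be parts of 1 gene. Over the 7 replicates their ratios were correlated at 0.98, the closest of the 36 pairs of contigs.

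The product of 6-phosphofructo-2-kinase is a sugar bisphosphate that activates phosphofructokinase, the committed step of glycolysis. Its contig117 had -1.62 and 0.97 in MR, 0.20 and -0.01 in SR, and 2.19, 0.80 and 0.66 in S. The SR replicates were close to each other and to 0, with a mean of 0.10 ± 0.15 (SD, n = 2). Aldolase, which splits fructose bisphosphate into triose phosphates, had -0.97 and 1.27 in MR, -0.25 and 0.07 in SR, and 1.25, 0.75 and 0.63 in S for contig1692. Its S mean, 0.88 ± 0.33 (SD, n = 3), was the lowest of the 9, and its probes differed by 1.25 in S A, where probe a gave 0.62 and probe b 1.88. Pyruvate kinase, which makes pyruvate and ATP, had -1.06 and 1.32 in MR, -0.28 and 0.20 in SR, and 2.12, 0.86 and 0.91 in S for contig7810. MR A was the lowest replicate of all 3 contigs, and the highest was S A in contig117 and contig7810 and MR B in contig1692.

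Of the PEPCK contigs, contig15015 had -0.73 and 1.02 in MR, 0.46 and 0.22 in SR, and 2.45, 0.69 and 0.94 in S. Contig9824 had -0.40 and -0.06 in MR, 0.49 and 0.11 in SR, and 2.14, 0.52 and 0.56 in S. These were the 2 contigs above 0 in both SR replicates, as 21.8% of all contigs were. Contig9824 was also the 1 contig of the 9 below 0 in both MR replicates, with a mean of -0.23 ± 0.24 (SD, n = 2). Its MR B value was close to 0, and the share of all contigs below 0 in both MR replicates was not counted. Both share a best match, a pea aphid PEPCK, and may belong to 1 gene. Their ratios were correlated at 0.89 over the 7 replicates, but in MR B contig15015 had 1.02 and contig9824 -0.06.

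In pyruvate dehydrogenase, the place of S A among the S replicates differed from that in the other contigs. Contig1856 had -0.68 and 0.21 in MR, -0.21 and 0.63 in SR, and 0.97, 1.27 and 1.44 in S, so that S A was the lowest S replicate instead of the highest. Its S mean of 1.23 ± 0.23 (SD, n = 3) had the smallest spread of the 9. Its correlations with the other contigs ran from 0.53 to 0.87, and those of contig9824 from 0.53 to 0.89. Its probe b was well above background on only 4 of 8 arrays in each treatment, and probe a was on all 8. On S A, probe b was well above background in neither channel, and it gave 0.70 there beside 1.25 in probe a. In both probes S A was the lowest S replicate. Aconitase, contig5578, had -1.64 and 0.91 in MR, -0.40 and 0.70 in SR, and 2.02, 0.83 and 1.55 in S. It was the contig nearest to contig1856 over the replicates, with a correlation of 0.87. Both were below 0 in SR A and above 0 in SR B, which also held for contig1692 and contig7810. That pattern in SR was found in 4 of 9 contigs and in 29.7% of all contigs. The reverse, above 0 in SR A and below 0 in SR B, was found in contig1069, contig3393 and contig117 and in 26% of all contigs. Over all pairs of the 9 contigs the correlation ranged from 0.53 to 0.98 with a median of 0.87, and 25 of 36 were above 0.8. The 7 points share arrays between contigs and include the S replicates whose ratios chose the contigs, so high correlations are partly built in. The share of such pairs among all contigs was not counted, and the correlations are a description.

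In MR, none of the 9 contigs was called in either direction. The thresholds were passed upwards by 2 contigs (0.0191% of 10489) and downwards by 61 (0.582%). The 9 means ran from -0.37 to 0.15 with a median of -0.17, beside a median of 0.00 over all contigs, and 4 were above 0. These means lay between replicates that disagreed. All 9 contigs were below 0 in MR A, from -2.002 to -0.40, and 8 were above 0 in MR B, up to 1.66. The combination, below 0 in A and above 0 in B, was found in 39.6% of all contigs. In dye terms, Cy3 was brighter than Cy5 in these 8 contigs in both MR replicates, whereas in S the brighter dye was Cy5 in A and C and Cy3 in B. In MR, replicate and dye orientation cannot be told apart. The 2 arrays of MR A differed by at most 0.16 in any of the 9 contigs. With limma, the unadjusted P of the 13 probes ran from 0.57 to 0.93, and the adjusted p was 1.00 for each. The 95% confidence intervals reached 1.03 to 1.95 to either side of the estimate, from -2.17 to 1.72 for probe a of contig1069, so they include changes as large as the thresholds in 1 direction or both for each probe.

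In SR, none of the 9 contigs was called. Upwards, 18 contigs passed (0.172% of 10489), and downwards 118 (1.12%). The means ran from -0.09 to 0.39 with a median of 0.21, beside 0.01 over all contigs, and 7 of 9 were above 0. Every contig value in either replicate was within 1 of 0, although probe b of contig1069 gave 1.08 in SR A. The highest mean was that of contig1069, whose probes gave 0.40 (SE 0.30, limma unadjusted P 0.25) and 0.39 (SE 0.40, P 0.38). The lowest P was that of contig15015, at 0.34 (SE 0.22, P 0.20). After Benjamini-Hochberg adjustment the p was 1.00 for each of the 13 probes. The intervals were narrower than in MR, reaching 0.60 to 1.09 to either side. They were from -0.27 to 0.95 for contig15015 and from -0.51 to 0.70 for contig117. Under this model and this processing, those 2 intervals leave out a 2-fold change. The same held for contig7810, contig9824, both probes of contig1692, and probe a of contig3393 and of contig1856, but not for the other probes. Over 10 other settings that kept both replicates, the contig15015 estimate ran from 0.13 to 0.51, and intervals for them are not given.

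**Figure D2:**
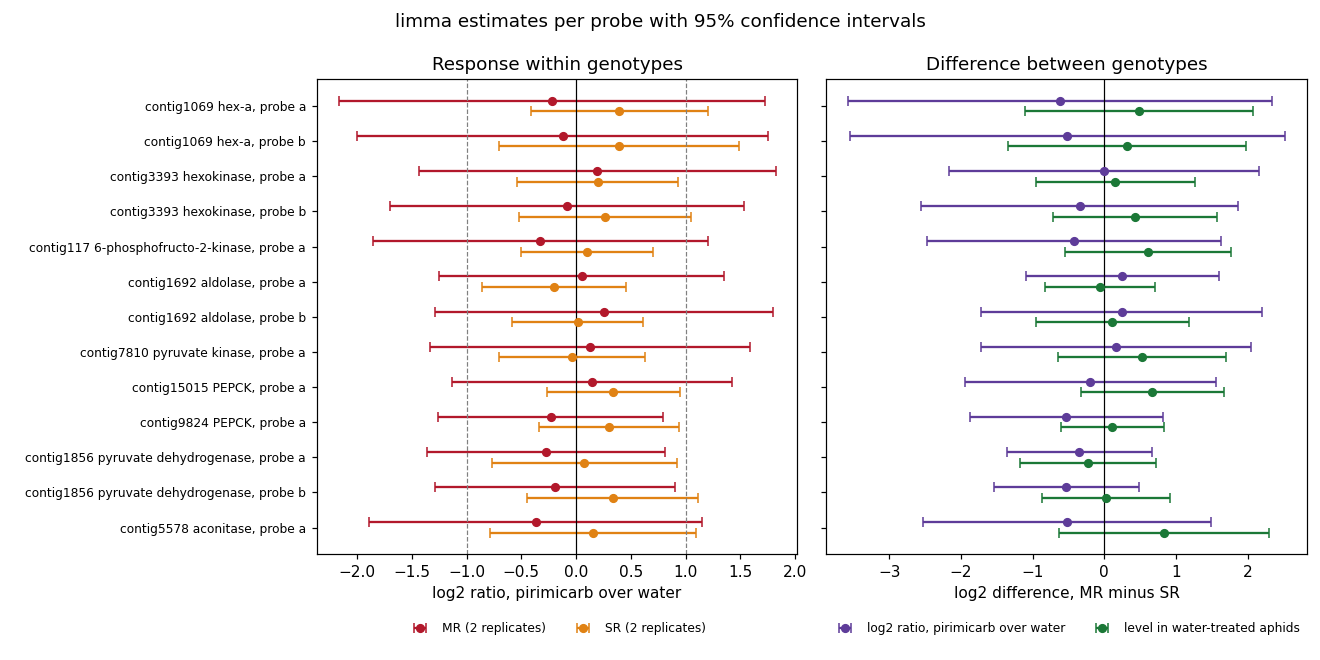
Estimates from limma for each of the 13 probes with 95% confidence intervals. The left panel gives the log2 ratio of pirimicarb over water in MR (red) and SR (orange), and the right panel gives MR minus SR for that ratio (purple) and for the level in water-treated aphids (green). Every interval includes 0, and those of the MR ratio are wider than those of the SR ratio.

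The responses of MR and SR were compared directly in 1 fit of all 7 replicates. No contig among the 9 passed an adjusted p of 0.05, nor did any of the 10489 (0%), while 240 probes had an unadjusted P under 0.05, with 0 of the 13 among them. The differences, MR minus SR, had a median of -0.42 over the 9 contigs, beside 0.00 over all contigs. The lowest unadjusted P was 0.26, for probe b of contig1856 at -0.53 (95% interval from -1.54 to 0.49). For contig9824 the difference was -0.53 (limma unadjusted P 0.38, adjusted p 1.00). Without MR A the median difference was 0.87, and without MR B it was -1.07, so the sign of the MR minus SR median depended on the MR replicate used.

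The level in water-treated aphids is the denominator of each ratio, and it was read from the water channel after quantile normalization of the average intensities between arrays. Levels are normalized log2 intensities and were compared only within a contig. Contig1069 had 10.30 and 11.71 in pirimicarb-treated MR A and MR B, 11.19 and 11.14 in SR A and SR B, and 12.21, 10.97 and 11.82 in S A, S B and S C. In water-treated aphids it had 12.30 and 10.05 in MR, 10.24 and 11.30 in SR, and 8.98, 10.27 and 10.20 in S. MR A was thus the lowest of 7 among pirimicarb-treated aphids and the highest among water-treated ones, and S A the reverse. Contig5578 had 10.27 and 11.39 in pirimicarb-treated MR, 9.85 and 11.18 in SR, and 10.60, 11.01 and 11.54 in S. In water-treated aphids it had 11.92 and 10.48 in MR, 10.25 and 10.48 in SR, and 8.57, 10.18 and 9.99 in S. The S A ratio of this aconitase contig was the highest of its 3 in S although its pirimicarb-treated level was the lowest of the 3.

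Water-treated S A was the lowest of the 7 water levels in all 9 contigs, and water-treated MR A the highest in 8, with contig1856 highest in SR A. Among all contigs, 30.7% had their lowest water level in S A and 34.7% their highest in MR A. The S water level is the denominator of the ratio that chose the contigs, so its low values are part of that choice and a description. The pirimicarb-treated level of S A minus the mean of S B and S C had a median of 0.40 over the 9 contigs (from -0.99 to 1.00), and for the water level this difference had a median of -1.01 (from -1.51 to -0.22). In MR, A minus B had a median of -1.12 in pirimicarb-treated aphids (from -1.52 to -0.05) and of 1.29 in water-treated aphids (from 0.29 to 2.25). On S A, probe b of contig1069, contig15015, contig5578 and probe b of contig1856 were not well above background in the water channel, and in that channel contig15015 was not on S B either, nor probe b of contig1856 on SR B, S B and S C. Their lowest water levels are bounds.

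**Figure D3:**
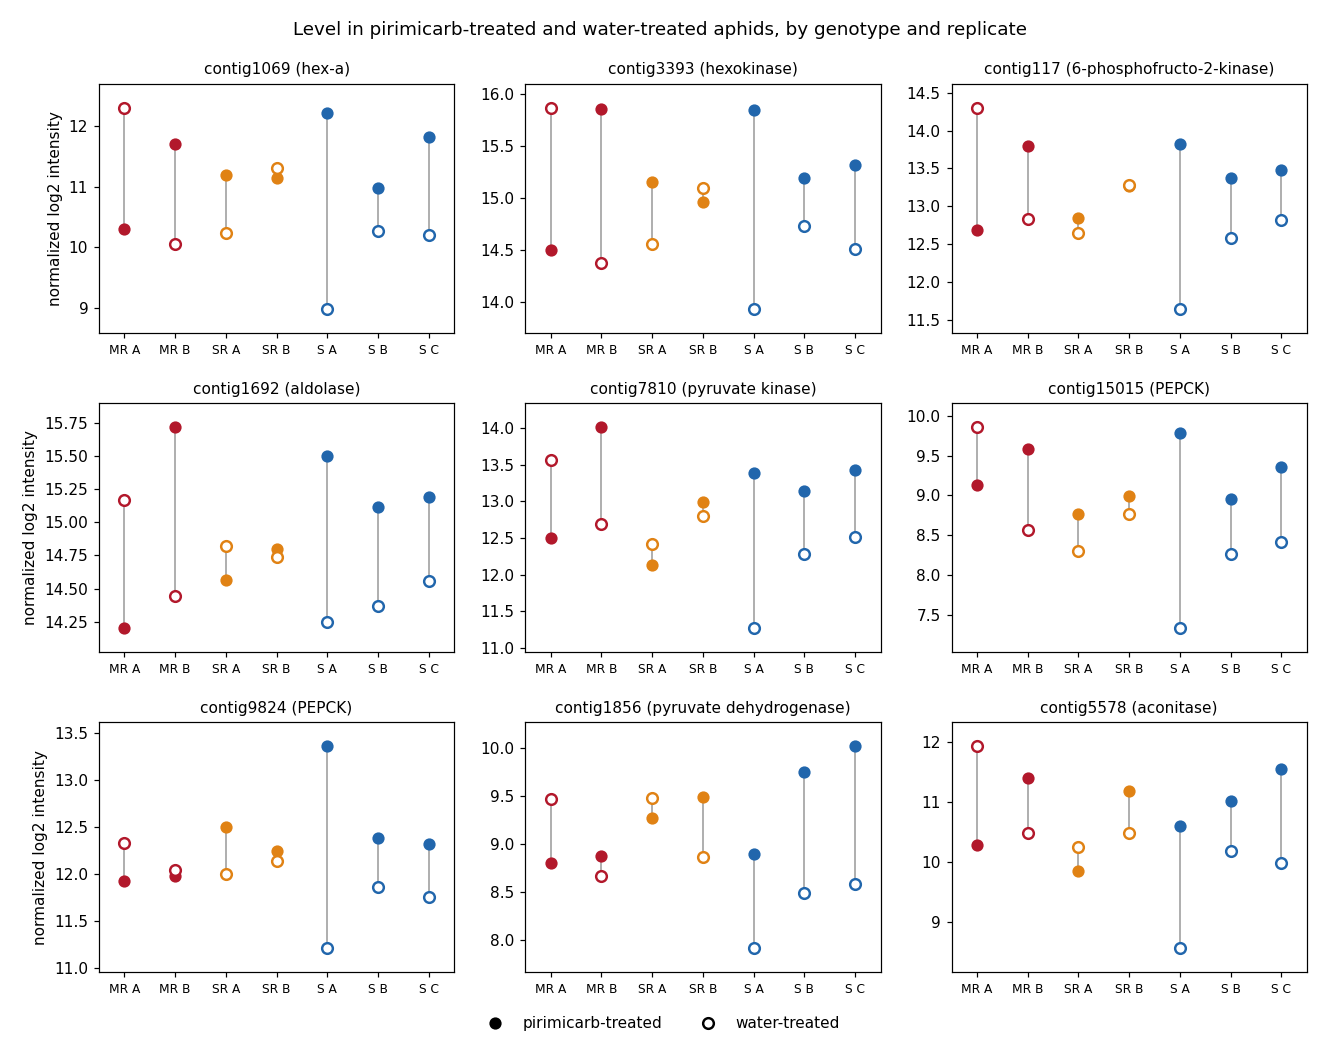
Normalized log2 intensity of each contig in pirimicarb-treated (filled) and water-treated (open) aphids of the same replicate, joined by a line, with MR in red, SR in orange and S in blue. Each panel has its own scale. The open circle of S A is the lowest water level in all 9 panels, and in MR A the open circle lies above the filled one in all 9.

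Water-treated MR and SR were compared in a separate-channel fit in limma. The means of MR were higher than those of SR in 8 of 9 contigs, as in 51.9% of all contigs, with a median difference of 0.40, beside 0.02 over all contigs. None of the 9 passed an adjusted p of 0.05, against 15 of 10489 contigs (0.143%). The widest difference was 0.84 in contig5578, where levels averaged 11.20 ± 1.02 in MR and 10.36 ± 0.16 in SR (SD, n = 2 each; limma unadjusted P 0.23, adjusted p 0.86; 95% interval from -0.63 to 2.30). The lowest unadjusted P was 0.17, for contig15015 at 0.67 (adjusted p 0.86). In contig1692 the difference was 0.03. Without MR A the median difference was -0.13, and without MR B it was 1.04.

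Other contigs of the pathway were few in the annotations at hand. Glyceraldehyde-3-phosphate dehydrogenase, which follows aldolase in glycolysis and served as the reference gene of the study's RT-qPCR, was on the array as contig1056. It had log2 ratios of 0.08 and 0.09 in MR, 0.10 and -0.06 in SR, and -0.04, -0.05 and 0.19 in S. These means are of probes that went opposite ways in some replicates, since probe a had 0.39 and 0.40 on the arrays of MR A and -0.29 in MR B, whereas probe b had -0.36 and -0.12 in MR A and 0.47 in MR B. Its probe b was higher in water-treated MR than SR by 0.40 (limma unadjusted P 0.048, adjusted p 0.86), and its probe a by 0.07. Contig1020, a pyruvate, acetyl-CoA or propionyl-CoA carboxylase, belongs to the enzyme family that replenishes oxaloacetate or starts fatty acid synthesis. It had -1.22 and 1.26 in MR, 0.13 and 0.27 in SR, and 1.63, 0.53 and 1.11 in S. Contig7361, an iron regulatory protein, a relative of aconitase that in vertebrates binds messenger RNAs of iron metabolism, had -1.10 and 0.86 in MR, 0.09 and 0.61 in SR, and 1.76, 0.43 and 0.87 in S. Both had also been selected on the S response. None of the 3 was called in MR or SR. Over the 7 replicates, the correlation with the mean of the 9 enzyme contigs was 0.97 for contig1020, 0.97 for contig7361 and -0.19 for contig1056. In the water channel, contig7361 was not well above background on S A, nor probe a of contig1020 on S A and S B. Probe b of contig1020 was not in the water channel of S A, S B and S C, nor in the pirimicarb channel of MR A.

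The replicates were also read in 6 muscle contigs, since muscle is a large consumer of glucose. These contigs come from the supplementary annotations of the study, and each had at least 1 probe with an S log2 ratio above 1. Their S values and correlations are therefore not independent of a high S response and are a description. Troponin c (contig1217) had -3.50 in SR A and 4.85 in S C, and flightin (contig2627), a protein of insect flight muscle, had 4.05 in S C and 0.07 in S A. Their highest S replicate was C, where the enzyme contigs other than contig1856 had A. Their correlations with the enzyme mean were 0.23 and 0.15. Paramyosin (contig847) had -2.81 and 0.65 in MR, -2.34 and 0.37 in SR, and 1.25, 1.01 and 1.19 in S, with a correlation of 0.83. The tropomyosin contigs (contig6034 and contig3546) had correlations of 0.78 and 0.76 and myosin heavy chain (contig627) of 0.49. In MR A, 4 of the 6 were below 0 together with all the enzyme contigs, from -2.81 to -1.21, and troponin c and flightin were above 0. The median over all contigs in MR A was -0.01, and the share of them below 0 was not counted. In MR, probe b of troponin c was not well above background in either channel of any array, and neither was probe b of flightin. In water-treated aphids, MR minus SR was -5.11 for probe a of flightin (limma adjusted p 0.072) and -3.67 for probe a of troponin c (adjusted p 0.53), and probe b of flightin, dim in MR, passed at an adjusted p of 0.048. The part of muscle RNA in the enzyme values was not tested.

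**Figure D4:**
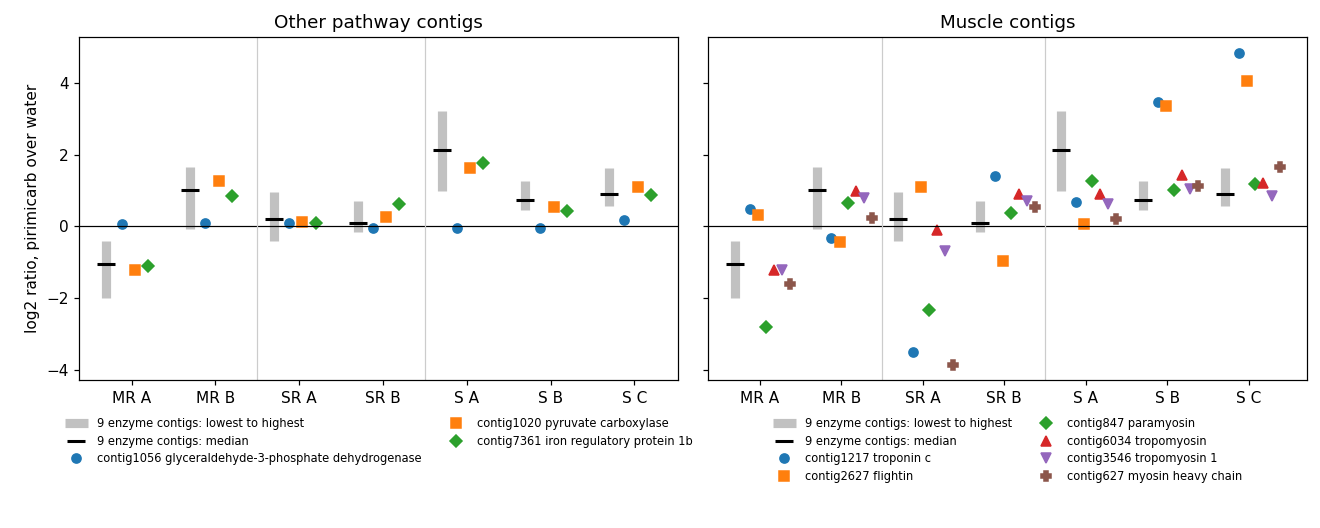
Log2 ratio of pirimicarb over water in the 7 replicates for 3 other pathway contigs (left) and 6 muscle contigs (right), with a grey bar from the lowest to the highest of the 9 enzyme contigs and a black dash at their median. Contig1020 and contig7361 lie within or beside the grey bar in each replicate, the mean of both contig1056 probes stays near 0, and troponin c and flightin are highest in S C.

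Among 8336 other contigs whose probes were well above background in both channels on all 8 arrays, the 5 whose ratios were most like the enzyme mean over the 7 replicates had correlations of 0.986 to 0.995. They were contig2157, contig4277, contig2228, contig5893 and contig15135. Contig5893 is annotated as a nucleolar GTP-binding protein, and the other contigs have no function given here. Contig4277 had -1.43 and 0.82 in MR, 0.28 and 0.25 in SR, and 1.99, 0.70 and 0.83 in S. A correlation above 0.8 with the enzyme mean was found in 13.9% of the 8336 contigs.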

How the data were processed

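Levels were measured on 8 two-colour Agilent arrays, all on 1 slide. The authors deposited scanner output in which median spot and background signals are intensities on a linear scale, not normalized. Their tables of fold changes and p-values per genotype were not used. Background was corrected with normexp (offset 50), arrays were normalized by loess with control spots at weight 0, outlier spots were left out, and log2 ratios were turned to pirimicarb over water from the labelled dyes. One model per genotype (lmFit and eBayes, limma 3.58.1, R 4.3.3) was fitted over 14628 probes, as in the methods, with Benjamini-Hochberg adjustment. A contig's ratio is the mean of its probes. Its spread is between replicates that the labels call biological, and the 2 arrays of MR A count once, since 1 is labelled a technical replicate although its title gives water-treated RNA of another letter. The methods of the study instead count 3 biological replicates for MR. With the 3 MR arrays as separate replicates, 7 contigs passed upwards and 77 downwards in MR, none of them among the 9. Water levels were fitted per channel after Aquantile normalization (intraspot correlation -0.07). The contigs and lists were chosen with earlier results of these data known. The named contigs are the 9 enzyme contigs, 3 other pathway contigs, 6 muscle contigs and the 5 most alike. Names come from best protein matches. The scripts were tested on simulated data. The number of arrays and dim spots limit the precision. Alternatives were other background corrections, normalizations, filters and fits, a replicate block, a dye term, the MR arrays used singly, and the omission of each replicate. No probe sequences were used here.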

Additional observations from a re-analysis of the deposited data

Results flagged for a closer look

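In contig9824 (PEPCK), both MR replicates were below 0 (-0.40 and -0.06, mean log2 ratio -0.23), and the 3 S replicates were above 0. MR B was thus close to 0, and the share of all contigs with this pattern was not counted. The difference between MR and S was not tested, because the contig had been selected on its S response.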

How the results depend on the processing

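The median log2 ratio of the 9 contigs was -0.17 in MR (-0.38 to -0.13 over 13 settings that kept all replicates), 0.21 in SR (0.10 to 0.23 over 11) and 1.23 in S (1.22 to 1.32 over 9). In SR it was 0.13 with median centring and 0.10 with only probes well above background, a setting that left 7 of the 9 contigs (contig15015 and contig5578 had no such probe). The MR minus SR median was -0.42 (-0.59 to -0.35) for the response and 0.40 (0.29 to 0.54) for the water level. Leaving out 1 replicate at a time gave -1.06 to 1.02 in MR, 0.11 to 0.20 in SR, 0.81 to 1.43 in S, -1.07 to 0.87 for the MR minus SR response and -0.13 to 1.04 for the MR minus SR water level. These fits share the spread over genotypes, which assumes that a replicate left alone has the spread of the other genotypes, and in the water fits with 1 MR replicate the intraspot correlation of all 7 was used. Where calls were counted (all settings but the brighter probe alone), none of the 9 contigs was called in SR, or in MR with both replicates. With MR B alone 3 were called upwards (contig3393, contig1692 and contig7810), and with MR A alone 4 downwards (contig1069, contig3393, contig117 and contig5578). Contig3393 was -1.37 without MR B and 1.48 without MR A. Over all contigs and with all replicates, calls in MR numbered 1 to 12 upwards (2 as reported) and 24 to 84 downwards (61 as reported). In SR they numbered 14 to 43 upwards (18 as reported) and 40 to 199 downwards (118 as reported). S A enters the MR minus SR fits through the spread, and the scaling of levels was kept. Without it in the fits, an alternative chosen after seeing the data, the lowest unadjusted P of the 13 probes was 0.13 for the response (adjusted p 1.00) and 0.11 for the water level (adjusted p 0.82). The methods have the genotypes sprayed in parallel, but the labels tie no replicate letter to a spray, and whether letters pair the samples was not settled. A minus B correlated over probes at -0.02 between MR and SR, -0.22 between MR and S and 0.51 between SR and S, and letters follow the dye orientation. With the replicate letter as a block the medians were -0.13 in MR, 0.10 in SR, 1.23 in S and -0.42 for MR minus SR, and none of the 9 contigs was called in MR or SR.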
